A study of Homo sapiens with 4 samples.

Results

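The unfolded protein response and the machinery that folds proteins in the endoplasmic reticulum (ER) were examined through 36 genes in HuCCT1 cells, a human intrahepatic cholangiocarcinoma cell line. The genes were listed by function, and a probe was assigned to a gene when its transcript accession belonged to that gene. All 36 genes had at least 1 probe, and 34 of them gave a signal well above background on all 4 arrays, out of 13599 genes measured in this way among the 19480 with a probe. ERN1 was not well above background on 1 array, and ERO1B on none of them.

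The cells were transfected with 30 nM of Pre-miR-376c (a mimic of the mature microRNA), Pre-miR negative control, siGRB2 (an siRNA against the adaptor gene GRB2) or siRNA negative control (an siRNA that silences no specific gene). EGF at 5 ng/ml was added 24 h after each of these transfections, in medium with 0.1% serum, and the cells were harvested after 24 h of EGF. Total RNA of each transfection was measured on 1 single-colour Agilent array, so every group held 1 culture of 1 cell line, no group lacked EGF, and no p-value or SD between cultures can be given. The comparisons asked how mRNA levels changed with Pre-miR-376c and with GRB2 silencing in EGF-treated cells.

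The ER folds secreted and membrane proteins with the help of chaperones, disulfide-forming enzymes and a cycle that reads sugar chains. When unfolded proteins accumulate, the membrane sensors ERN1 (IRE1), EIF2AK3 (PERK) and ATF6 signal to the nucleus, through XBP1, ATF4 and the cleaved ATF6 protein, and raise the genes for chaperones, for oxidative folding and for the removal of misfolded proteins (ER-associated degradation). Secretory epithelial cells, such as those of the bile duct, rely on this machinery continuously.

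Many genes of this response share a promoter sequence, the ER stress response element, made of the letters CCAAT, any 9 bases and CCACG, to which NF-Y and ATF6 or XBP1 bind, and a shorter second form, made of ATTGG, any base and CCACG. RefSeq (GRCh38.p14) promoters, from 250 bases before to 50 bases after the gene start, were at hand for 32 of the 36 genes, and both strands were searched. The element was found in 8 of the 32 genes (25.0%), XBP1, HSPA5, HSP90B1, CRELD2, PDIA6, ERO1B, CALR and CANX, beside 0.0916% of 27305 genes with a promoter in the table. The second form was found in HYOU1, SDF2L1 and HERPUD1 (9.38%, beside 0.0696% of all). The 5-letter part CCACG, which lies within both forms, was present in 22 of the 32 genes and in 42.1% of all genes. A match describes the sequence and does not show that a factor bound there. The genes were listed for their part in this response, so their higher share is not an independent finding.

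The elements shown are examples of the first form, from the chaperone genes HSPA5 and CALR and the transcription factor gene XBP1, and 1 element of each gene with the second form, with the fixed letters in capitals and 5 bases on either side. For HSPA5 it lies at chr9:125241391-125241409, for XBP1 at chr22:28800603-28800621 and for CALR at chr19:12938384-12938402 on the strand opposite to the gene. The second form lies at chr16:56932025-56932035 for HERPUD1, at chr22:21642114-21642124 for SDF2L1 and at chr11:119057274-119057284 for HYOU1, the last 2 on the opposite strand. Pre-miR-376c is described in the study's methods as a mimic of the 3p arm, whose mature sequence in RefSeq is shown with its seed, bases 2 to 8, in capitals.
HSPA5: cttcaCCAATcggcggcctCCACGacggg
XBP1: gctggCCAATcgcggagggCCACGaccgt
CALR: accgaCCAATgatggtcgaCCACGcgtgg
HERPUD1: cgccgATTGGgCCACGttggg
SDF2L1: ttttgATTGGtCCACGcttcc
HYOU1: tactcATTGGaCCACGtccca
hsa-miR-376c-3p: aACAUAGAggaaauuccacgu

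Levels are given as log2 processed signal minus the 75th percentile of the array, averaged over the probes of a gene. The arrays detected 21811 to 24119 of 34127 probes, the 75th percentile signal was 1719 to 2689, and no spot was saturated. The error of the scanner software on a log2 difference was 0.12 to 0.22 for these 34 genes, and it does not cover the spread between cultures. The targeted gene GRB2 had a level of 0.62 with Pre-miR negative control, -0.10 with siRNA negative control, 0.07 on the Pre-miR-376c array and -0.65 on the siGRB2 array, the lowest of the 4. All 6 markers of biliary epithelium examined (KRT7, KRT19, KRT8, KRT18, EPCAM and SOX9) were well above background on all 4 arrays, while of 3 markers each of hepatocytes, fibroblasts, endothelium and leukocytes, 1, 1, 2 and 2 were, and ALB, TTR, COL3A1 and DCN were on none.

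The siRNA negative control array stood apart from the other 3. Over all genes, the SD of the log2 differences was 0.50 to 0.55 in the 3 pairs that include it, and 0.30 to 0.34 in the other 3 pairs. It was the highest of the 4 arrays for 16 of the 34 ER genes (31.1% of all genes) and the lowest for 9 (43.3%), and Pre-miR negative control was the lowest for 13 (19.2%). Each treatment was therefore set against both negative controls, and the negative controls against each other. The siRNA negative control array also had the lowest 75th percentile signal and the fewest detected probes, and their part in its differences was not tested. In bulk RNA, fewer cells that express a gene and less of its mRNA per cell cannot be told apart.

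With Pre-miR-376c, the ER genes lay about as far from Pre-miR negative control as all genes did. The median size of the log2 difference, whatever its sign, was 0.20 for the ER genes and 0.19 for all genes. With the sign kept, the median log2 difference of the ER genes was 0.13, beside -0.02 for all genes, and single genes ranged from -0.49 to 0.69. PDIA4 alone reached a 1.5-fold difference (1 of 34, beside 7.8% of all genes, 2.68% higher and 5.13% lower), and none of the 34 reached 2-fold, beside 1.14%. Against siRNA negative control, the median was -0.04 (all genes 0.06), 9 of 34 genes reached 1.5-fold (22.1% of all genes) and 3 reached 2-fold (4.57%). Of the 9, 3 were higher (11.4% of all genes) and 6 lower (10.7%). The count was larger against siRNA negative control, and so was that over all genes.

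With siGRB2, the median was -0.11 against siRNA negative control, beside 0.11 for all genes. There, 6 genes were at least 1.5-fold higher (17.6% of all genes) and 6 at least 1.5-fold lower (10.9%), 12 of 34 in all, beside 28.6% of all genes, and 2 reached 2-fold, beside 6.74%. Against Pre-miR negative control, the median was 0.10 (all genes 0.03), PDIA4 and ERP44 were at least 1.5-fold higher (2 of 34, beside 2.71% of all genes), none was lower (2.39%), and in either direction 5.1% of all genes were. None reached 2-fold (0.934%). Between the negative controls themselves, the ER genes had a median of 0.32 in siRNA negative control minus Pre-miR negative control (all genes -0.08), 10 of 34 reached 1.5-fold (25.0% of all genes) and 2 reached 2-fold (5.7%). Of the 10, 6 were higher with siRNA negative control (10.4% of all genes) and 4 lower (14.6%). The comparisons that share an array are not independent of each other.

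**Figure D1:**
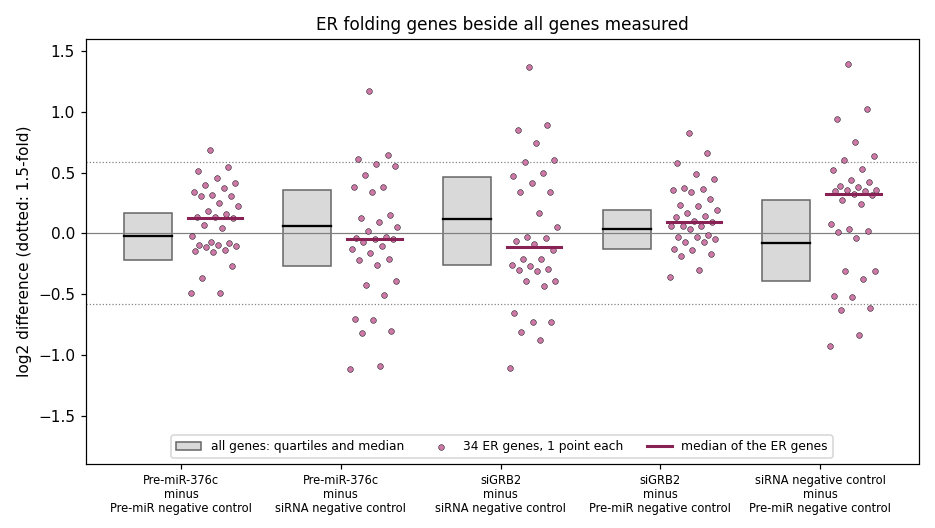
Log2 differences of the 34 ER genes (points, with their median as a line) in the 5 comparisons, beside the quartiles and median of all 13599 genes (grey boxes), with dotted lines at 1.5-fold. The points spread more widely in the 3 comparisons that use the siRNA negative control array than in the comparisons of each treatment with Pre-miR negative control, where the lowest and highest points are -0.49 and 0.83.

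Without the siRNA negative control array, the range between the highest and lowest array was under 1.5-fold for 32 of the 34 genes (87.0% of all genes), with PDIA4 and ERP44 as the exceptions, and it was at least 2-fold for ERP44 (2.12% of all genes). With it, the range over the 4 arrays was under 1.5-fold for 21 of the 34 (57.0% of all genes) and at least 2-fold for 7 (11.5% of all genes), HYOU1, SDF2L1, MANF, PDIA4, ERP44, ERO1A and HERPUD1. Pre-miR-376c lay above both controls for 10 genes (29.3% of all genes) and below both for 10 (27.2%). siGRB2 lay above both for 10 (38.3%) and below both for 9 (23.9%). One gene, ERP44, was at least 1.5-fold from both controls in the same direction, with siGRB2 (1.26% of all genes were that far above), while none was that far below them (0.934%). No gene was that far from both with Pre-miR-376c (0.809% of all genes above and 1.59% below).

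**Figure D2:**
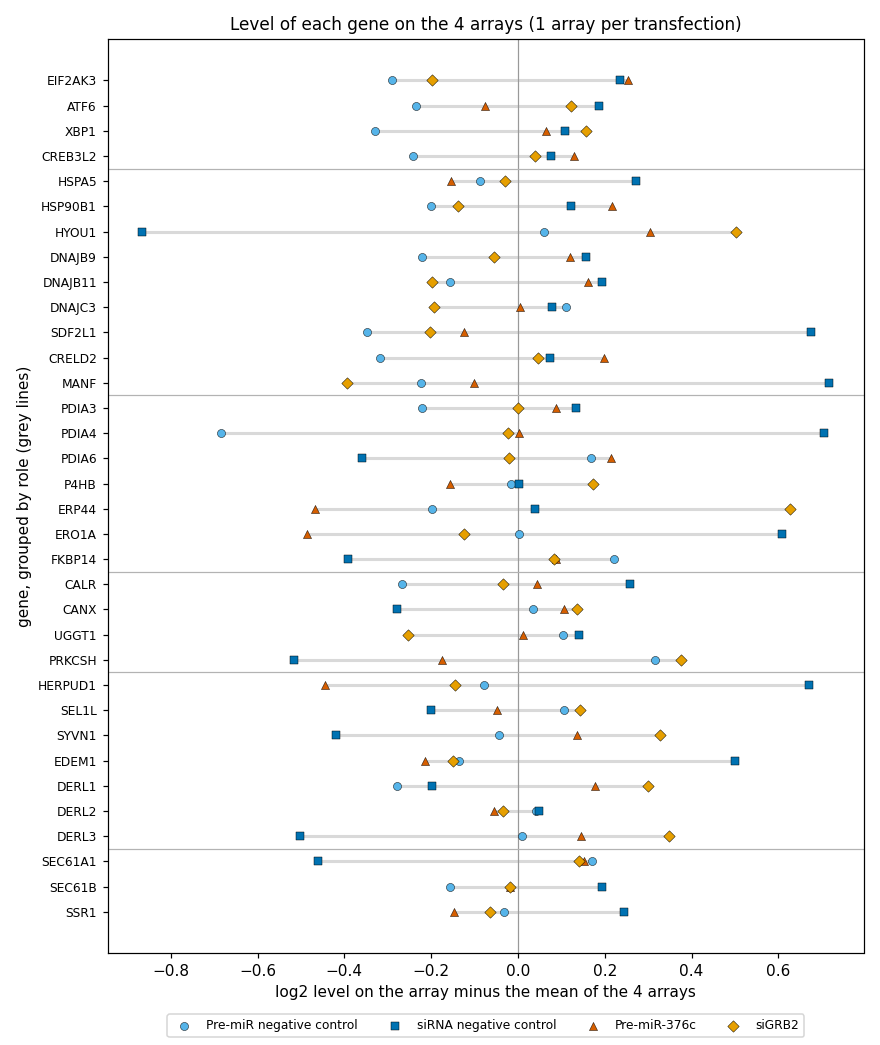
Log2 level of each of the 34 genes on the 4 arrays, minus the mean of the 4, with grey lines between groups of genes by role. For SDF2L1, MANF, PDIA4, ERO1A, HERPUD1 and EDEM1 the siRNA negative control array (squares) lies at least 1.5-fold above the other 3, and for HYOU1 and SEC61A1 at least 1.5-fold below them.

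Among the sensors, EIF2AK3, the kinase that slows translation under ER stress, had levels of -2.47 with Pre-miR negative control, -1.94 with the siRNA control, -1.92 in Pre-miR-376c cells and -2.38 in siGRB2 cells. The arrays fell into a higher pair and a lower pair, each made of 1 control and 1 treatment, so Pre-miR-376c was above its own control by 0.54 ± 0.21 (software error), and siGRB2 below its own by 0.43. ATF6, the sensor that is cut to release a transcription factor, had levels of 0.35, 0.78, 0.51 and 0.71 in the same order, with both treatments between the controls.

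ERN1, the sensor that splices XBP1 mRNA, had a processed intensity of 60.8 with Pre-miR negative control, 34.9 on the Pre-miR-376c array and 30.9 on the siGRB2 array. It was not well above background with siRNA negative control (14.9), where the lowest signal of a detected probe was 21.5. After scaling to the 75th percentile and against siRNA negative control, ERN1 was thus at least 1.35-fold higher in the Pre-miR-376c array and at least 1.24-fold higher in the siGRB2 array, while against Pre-miR negative control its log2 differences were -0.42 and -0.55. These values rest on a single spot near the detection limit, and the direction turned with the control.

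XBP1, the transcription factor activated by ERN1, was measured by 10 spots of 1 probe, which gives no separate value for its spliced form. Its levels were 1.27, 1.71, 1.66 and 1.76, again in the order of both controls and then both treatments, with an SD between spots of 0.033 to 0.043. XBP1 was therefore lower with Pre-miR negative control than on the other 3 arrays, which spanned 1.66 to 1.76. The log2 difference from Pre-miR negative control was 0.40 in Pre-miR-376c cells and 0.49 in siGRB2 cells, and from siRNA negative control -0.04 and 0.05. CREB3L2, a membrane-bound transcription factor related to ATF6, had a similar order, at -1.85, -1.53, -1.48 and -1.57. The gene means of these 4 were lowest with Pre-miR negative control, as for 19.2% of all genes, but EIF2AK3 was only 0.09 below siGRB2, within its software error, and 1 of the 2 probes of CREB3L2 was lowest with siRNA negative control (-3.69, against -3.64 with Pre-miR negative control).

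HSPA5 (BiP), the main ER chaperone and the classical read-out of the response, had levels of -0.23 and 0.13 in the Pre-miR and siRNA negative controls and -0.30 and -0.17 in the cells given Pre-miR-376c and siGRB2. The siRNA negative control was the highest and the other 3 arrays lay within 0.12 of each other, less than the software error of 0.20. These levels rest on 1 spot of 1 probe. The log2 difference of HSPA5 was -0.07 on the Pre-miR-376c array and 0.06 on the siGRB2 array against Pre-miR negative control, and -0.43 and -0.30 against siRNA negative control. HSP90B1 (GRP94), the ER member of the Hsp90 family, had levels of 3.46, 3.78, 3.87 and 3.52. Its mean over 2 probes was highest with Pre-miR-376c, 0.41 above Pre-miR negative control, and siGRB2 was 0.06 above the same control. The brighter probe was instead highest with siRNA negative control, at 6.40 against 6.09 with Pre-miR-376c.

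Of the partners that drive the BiP cycle, DNAJB9, a J-protein that binds misfolded clients and ERN1, had levels of 0.01, 0.39, 0.35 and 0.18. DNAJB11 had levels of 2.35, 2.70, 2.67 and 2.30. In both J-proteins the siRNA negative control and Pre-miR-376c were the higher pair, at most 0.39 apart from the lowest array. DNAJC3, a J-protein also known as an inhibitor of eIF2alpha kinases, had levels of -0.08, -0.11, -0.19 and -0.38, with siGRB2 below the controls by 0.30 and 0.27.

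HYOU1 (GRP170), the nucleotide exchange factor of BiP, had levels of -2.25 with Pre-miR negative control, -3.18 with siRNA negative control, -2.0 in Pre-miR-376c cells and -1.81 in siGRB2 cells. Both treatments were above both controls, but most of the difference came with the siRNA negative control array, which stood 0.93 below the other control. The log2 difference of HYOU1 was 1.17 on the Pre-miR-376c array and 1.37 ± 0.21 on the siGRB2 array against siRNA negative control, and 0.25 and 0.44 against Pre-miR negative control.

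SDF2L1, a partner of DNAJB11 that is induced strongly by ER stress, stood in the opposite way, with levels of 3.80, 4.83, 4.03 and 3.95. The siRNA negative control was at least 0.80 above each of the other arrays, which lay within 0.22 of each other. Relative to siRNA negative control, the signal of SDF2L1 was 0.574 times as high with Pre-miR-376c and 0.544 times with siGRB2, but relative to Pre-miR negative control it was 1.17 and 1.11 times as high. MANF, a secreted protein retained in the ER until stress releases it, also had its highest level with siRNA negative control, with levels of 3.96, 4.90, 4.09 and 3.79. Unlike SDF2L1, it was lowest with siGRB2, 0.17 below Pre-miR negative control, which is within the software error of 0.20. It was chosen for description after its values were seen, as were ERO1A, EDEM1, DERL1 and SEC61A1 below. CRELD2, another stress-induced ER protein, had levels of 0.92, 1.31, 1.44 and 1.28, with Pre-miR negative control lowest.

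**Figure D3:**
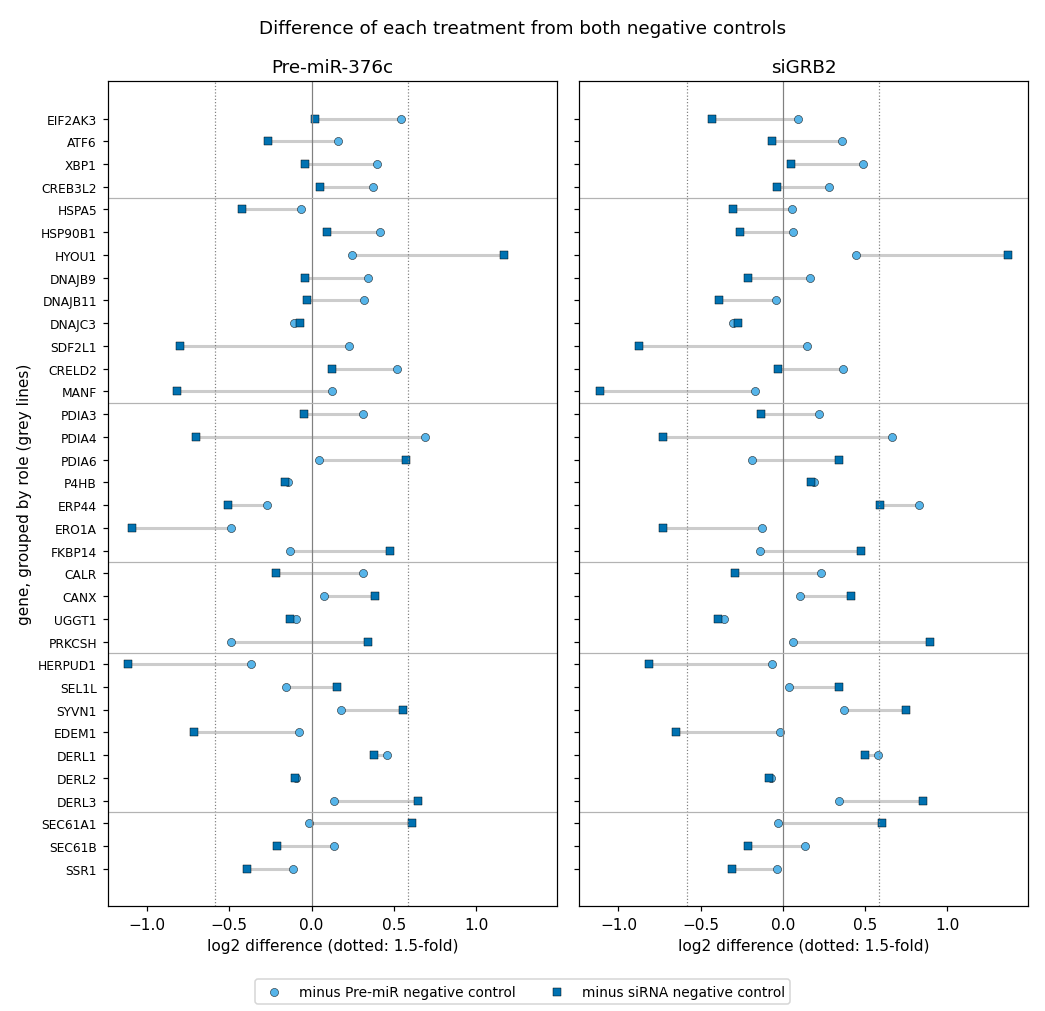
Log2 difference of each gene with Pre-miR-376c (left) and siGRB2 (right) from Pre-miR negative control (circles) and from siRNA negative control (squares), with dotted lines at 1.5-fold. PDIA4 lies on opposite sides of 0 against the 2 controls with both treatments, and ERP44 with siGRB2 is the only gene with both points beyond 1.5-fold on the same side.

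Among the enzymes that form disulfide bonds, PDIA4 had the widest range, with levels of 1.21 with Pre-miR negative control, 2.60 with siRNA negative control, 1.90 in Pre-miR-376c cells and 1.88 in siGRB2 cells. The treated arrays were nearly equal and lay about midway between the controls, which differed by 1.39 ± 0.20. PDIA4 was thus 1.61 times and 1.58 times as high as Pre-miR negative control in the Pre-miR-376c and siGRB2 arrays, and 0.615 and 0.604 times as high as siRNA negative control. Its direction depended on the control.

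ERP44, which retains oxidases and unassembled proteins in the early secretory pathway, had levels of -3.27, -3.04, -3.54 and -2.45. siGRB2 was the highest and Pre-miR-376c the lowest of the 4 arrays, 1.10 apart. The log2 difference with siGRB2 was 0.59 ± 0.21 against siRNA negative control and 0.83 ± 0.21 against Pre-miR negative control, whereas Pre-miR-376c gave -0.51 and -0.27. ERP44 rests on 1 spot. Its difference from siRNA negative control came short of 1.5-fold after quantile normalization (0.36), a shift to the array median (0.30), normexp background correction (0.42), in the deposited log2 table (0.51) and when the median of all genes was subtracted (0.47).

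ERO1A, the oxidase that renews the disulfides of the protein disulfide isomerases and is also raised by hypoxia, was measured by 10 spots. Its levels were 3.67, 4.28, 3.18 and 3.54, with an SD between spots of 0.030 to 0.041. The siRNA negative control was the highest and Pre-miR-376c the lowest. Both treatments were below both controls, Pre-miR-376c by 0.49 and 1.09 on the log2 scale and siGRB2 by 0.13 and 0.73. The difference of 0.13 is within the software error of 0.20. Its paralogue ERO1B was not well above background on any array, and no fold difference is given.

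PDIA3, the isomerase that works with the lectin chaperones, had levels of 1.0, 1.36, 1.31 and 1.22. PDIA6 had levels of 2.77, 2.25, 2.82 and 2.58, with the siRNA negative control lowest. Neither gene reached 1.5-fold in any comparison. P4HB, the prototype protein disulfide isomerase, had levels of 5.36, 5.38, 5.22 and 5.55, a range of 0.33 over the 4 arrays. FKBP14, a prolyl isomerase of the ER, had levels of -0.57, -1.19, -0.71 and -0.71, with the siRNA negative control lowest and the treated arrays equal.

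In the glycoprotein folding cycle, CALR (calreticulin), a soluble lectin chaperone, had levels of 6.48, 7.01, 6.80 and 6.72, both treatments lying between the controls. CANX (calnexin), its membrane-bound relative, had levels of -0.15, -0.47, -0.08 and -0.05. On the mean of 2 probes, both treatments were above Pre-miR negative control by 0.07 and 0.10, within the software error of 0.14. They were above siRNA negative control by 0.38 and 0.42. Against Pre-miR negative control, the brighter probe gave -0.12 and -0.07, and the other probe 0.27 with each treatment. UGGT1, the enzyme that marks unfolded glycoproteins for another round of folding, had levels of -0.76, -0.73, -0.86 and -1.12. With siGRB2 it was below the controls by 0.36 and 0.39. PRKCSH, the beta subunit of glucosidase II, had levels of -0.24, -1.07, -0.73 and -0.18, the siRNA negative control being the lowest and the siGRB2 array close to Pre-miR negative control.

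In ER-associated degradation, HERPUD1, a stress-induced scaffold of the ubiquitin ligase complex, had levels of 2.85 with Pre-miR negative control, 3.60 with siRNA negative control, 2.48 on the Pre-miR-376c array and 2.78 on the siGRB2 array. Both treatments were below both controls. With Pre-miR-376c the log2 difference of HERPUD1 was -0.37 against Pre-miR negative control and -1.12 against siRNA negative control, and with siGRB2 it was -0.07 and -0.82, each with a software error of 0.20. EDEM1, which directs misfolded glycoproteins to degradation, had levels of -3.39, -2.75, -3.47 and -3.40, so that the siRNA negative control alone stood above the other 3 arrays, which lay within 0.08.

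SYVN1 (HRD1), the ubiquitin ligase of the complex, had levels of 1.81, 1.43, 1.99 and 2.18. Both treatments were above both controls, by 0.18 to 0.75. The 0.18, with Pre-miR-376c against Pre-miR negative control, is within the software error of 0.20. Its adaptor SEL1L had levels of -0.02, -0.32, -0.17 and 0.02, a range of 0.34. Of the derlins, which form part of the exit channel, DERL1 had levels of -0.40, -0.32, 0.06 and 0.18. Here the controls were within 0.08 of each other, and both treatments were higher, Pre-miR-376c by 0.46 and 0.38 and siGRB2 by 0.58 and 0.50, between 1.30-fold and 1.49-fold. DERL2, measured by 10 spots, had levels of 2.08, 2.09, 1.99 and 2.01, the narrowest range of the 34 genes (0.10). DERL3 had levels of -1.72, -2.24, -1.59 and -1.39, with the siRNA negative control lowest.

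In the translocon, the channel through which new proteins enter the ER, SEC61A1 had levels of 1.74, 1.11, 1.73 and 1.71. The siRNA negative control stood 0.60 or more below the other 3 arrays, which lay within 0.03. SEC61B had levels of 4.08, 4.43, 4.22 and 4.22, and SSR1 had levels of 0.22, 0.50, 0.11 and 0.19. For both the siRNA negative control was the highest array by gene mean. Of the 3 probes of SSR1, 1 was instead highest with Pre-miR-376c (-2.27, against -2.49 with siRNA negative control).

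By the pattern over arrays, 6 of the 34 genes had the siRNA negative control at least 1.5-fold above the highest of the other 3 arrays, SDF2L1, MANF, PDIA4, ERO1A, HERPUD1 and EDEM1, beside 5.48% of all genes. HYOU1 and SEC61A1 had it at least 1.5-fold below the lowest of the other 3, 2 of 34, beside 6.78% of all genes. HYOU1 is itself a classical target of the response and stood opposite to SDF2L1 and HERPUD1, which hold the same second form of the promoter element. Among the 10 measured genes with either form of the element, the median of siRNA negative control minus Pre-miR negative control was 0.37, and among the 20 measured genes with a promoter and neither form it was 0.30 (all genes -0.08). In Pre-miR-376c minus Pre-miR negative control the medians were 0.24 and -0.05 (all genes -0.02), and in siGRB2 minus Pre-miR negative control 0.12 and 0.05 (all genes 0.03). Against siRNA negative control, they were 0.03 and -0.12 for Pre-miR-376c (all genes 0.06) and -0.14 and -0.21 for siGRB2 (all genes 0.11).

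More than 1 probe measured 8 of the genes. The probes of a gene gave the same sign for 7 of 8 genes in siGRB2 minus Pre-miR negative control and for 5 of 8 in Pre-miR-376c minus Pre-miR negative control, but for 3 of 8 in each comparison with siRNA negative control. For SEL1L, the probes gave log2 differences of 0.06 and 0.01 with siGRB2 against Pre-miR negative control, and -0.27 and 0.95 against siRNA negative control. For HSP90B1 they gave 0.12 and 0.00062, and -0.55 and 0.03, in the same comparisons. The probes of DERL3 agreed in sign in both, with 0.11 and 0.57, and 0.59 and 1.11. The 0.57 and 1.11 came from a dim probe, with an intensity of 23.8 on the siRNA negative control array, near the lowest detected signal of 21.5. The median gap between the probes of a gene in the comparisons with Pre-miR negative control was 0.13 (siGRB2) and 0.26 (Pre-miR-376c), and in those with siRNA negative control 0.50 and 0.51. The other 26 measured genes rest on 1 probe, HSPA5, SDF2L1, MANF, PDIA4, HERPUD1, HYOU1 and ERP44 among them.

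**Figure D4:**
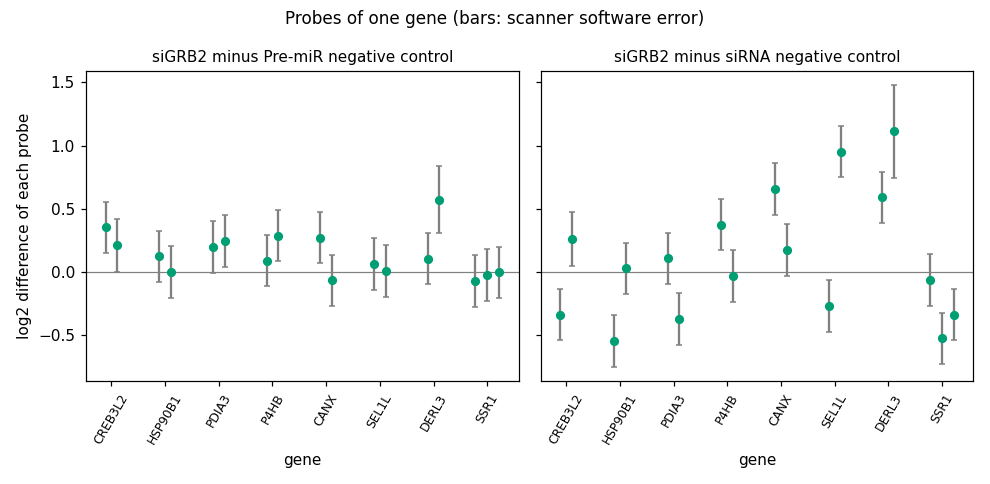
Log2 difference of each probe of the 8 genes with several measured probes, for siGRB2 minus Pre-miR negative control (left) and minus siRNA negative control (right), with the scanner software's error as bars. The probes of SEL1L coincide on the left (0.06 and 0.01) and lie 1.22 apart on the right.

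The branch of the response downstream of EIF2AK3, which other stresses also raise, was followed through 9 genes, ATF4 among them, all measured. From Pre-miR negative control, 0 of 9 were at least 1.5-fold different with siGRB2 (5.1% of all genes) and 1 with Pre-miR-376c (7.8%). From siRNA negative control, 6 of 9 were with siGRB2 (28.6% of all genes) and 6 of 9 with Pre-miR-376c (22.1%). With siGRB2, 3 were higher (17.6% of all genes) and 3 lower (10.9%), and with Pre-miR-376c also 3 higher (11.4%) and 3 lower (10.7%). Between the controls, 6 of 9 differed this far as well (25.0% of all genes). Of these, 3 were higher with siRNA negative control (10.4%) and 3 lower (14.6%). The pro-apoptotic factor DDIT3 (CHOP) had levels of -0.55, -0.79, 0.17 and -0.44, and was higher with Pre-miR-376c than with either control, by 0.72 and 0.95. With siGRB2 it was higher by 0.12 and 0.35. Of the others, chosen after their values were seen, ATF4, TRIB3 and ASNS (asparagine synthetase) were above Pre-miR negative control by 0.67, 1.09 and 0.98 on the siRNA negative control array, while ATF3, PPP1R15A and SESN2 were below it by 0.90, 0.71 and 0.62 there. These genes thus differed in direction on that array. They also differed in level. With Pre-miR negative control, ATF4, TRIB3 and ASNS had levels of 5.80, 5.20 and 2.64, and ATF3, PPP1R15A and SESN2 of -1.32, 0.10 and -1.95. The part of signal strength in the direction was not tested.

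Of 69 further genes of the ER, such as subunits of the oligosaccharyltransferase, the signal peptidase and the translocon, 68 were measured. Against Pre-miR negative control, their median log2 difference was 0.07 for either treatment, beside -0.02 (Pre-miR-376c) and 0.03 (siGRB2) for all genes. At least 1.5-fold different were 5 of 68 with Pre-miR-376c (7.35%, beside 7.8% of all genes) and 3 with siGRB2 (4.41%, beside 5.1%). Against siRNA negative control the medians were 0.04 and 0.07, beside 0.06 and 0.11 for all genes, and 16 (23.5%, beside 22.1%) and 21 genes (30.9%, beside 28.6%) were that far apart. The shares of these 68 genes were near those of all genes in each of these comparisons. PDIA5, another disulfide isomerase, had levels of -0.41, -0.28, 0.32 and 0.33, so that both treatments were at least 1.5-fold above both controls. Against siRNA negative control its log2 differences, 0.597 and 0.605, were only just past 1.5-fold, and their dependence on the processing was not examined. The controls differed by 0.13 and the treated arrays by less than the software error.

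SERP1, a small protein that stabilises new membrane proteins at the translocon under stress, had levels of 1.58, 2.07, 0.89 and 1.19. Both treatments were below both controls, Pre-miR-376c by 0.69 and 1.18 and siGRB2 by 0.38 and 0.88. UBE2J1, the ubiquitin-conjugating enzyme of ER-associated degradation, had levels of -1.01, -0.79, -1.24 and -1.77. It was lowest with siGRB2, 0.77 below Pre-miR negative control and 0.98 below siRNA negative control. PDIA5, SERP1 and UBE2J1 were the 3 of the 68 genes that differed at least 1.5-fold from both controls in the same direction with either treatment. With Pre-miR-376c this was 1 gene above (0.809% of all genes) and 1 below (1.59%), and with siGRB2 1 above (1.26%) and 1 below (0.934%), close to the share of all genes.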

How the data were processed

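The authors deposited, for each of the 4 arrays (1 per transfection), the spot intensity values of Agilent Feature Extraction (10.7.3.1, from the file headers), background-subtracted but not scaled between arrays. A log2 table, which the authors deposited after scaling each array to its 75th percentile in GeneSpring GX, served as an alternative. Its columns had medians of -3.59 to -3.36 and equalled the scanner values plus a constant within 0.01 for 99.5% of the probes on each array.

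Here, log2 processed intensity was shifted to the 75th percentile of 43118 non-control spots per array, 289 to 329 outlier spots were left out, and spots of a probe and then probes of a gene were averaged. A probe counted as measured when more than 0.5 of its spots were well above background on all 4 arrays. Accessions gave a gene for 25419 of 34127 probes through RefSeq (GRCh38.p14), used for names only, as the scanner files name another build. Python (3.11.15), pandas (2.3.3), R (4.3.3) and limma (3.58.1, for quantile normalization and normexp) were used, and the summary step was checked on simulated data. All arrays lay on 1 slide. With 1 array a group, no test was made, and the number of arrays limits precision. Differences were described at 2-fold, the limit of the study's methods, and at 1.5-fold. The gene lists were chosen with earlier results of these data known, and the second promoter element was added after seeing the data. Sensors, classical targets and any gene at least 1.5-fold from both controls in the same direction were to be described in full, and the values of the other measured genes were added. Protein sequences were not analysed here.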

Additional observations from a re-analysis of the deposited data

Results flagged for a closer look

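PDIA4 stood out because the treatments, each set against its own negative control, differed at least 1.5-fold in opposite directions. It was 0.69 above Pre-miR negative control with Pre-miR-376c and 0.73 below siRNA negative control with siGRB2 (log2), a gap of 1.41 between these differences. The gap was not tested, as each value rests on 1 array. Directly compared, the treated arrays had levels of 1.90 and 1.88, and the controls 1.21 and 2.60. Over all genes, 245 of 13599 (1.8%) showed such a pattern.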

How the results depend on the processing

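No paired analysis was possible because every transfection was measured once, so the groups share only the replicate number 1. Leaving out an array leaves a treatment with the other negative control, given here. Against the other control, the median log2 difference of the ER genes went from 0.13 to -0.044 for Pre-miR-376c (0.017 with the percentile over detected probes and 0.018 after quantile normalization, so its sign is not settled) and from -0.11 to 0.097 for siGRB2, the genes at least 1.5-fold different numbered 9 and 2, and those at least 2-fold different 3 and 0. PDIA4 turned to -0.70 with Pre-miR-376c and to 0.66 with siGRB2, and SDF2L1 to 0.15 with siGRB2. Against the mean of both controls, the medians were 0.023 and 0.011, with 3 and 4 genes at 1.5-fold and, for siGRB2, 0 at 2-fold, and PDIA4 was at -0.0066 with Pre-miR-376c.

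A shift to the array median moved the median of all genes from 0.11 to -0.17 in siGRB2 minus siRNA negative control, and gave medians of 0.24 (Pre-miR-376c) and -0.39 (siGRB2) against their own controls, -0.20 for Pre-miR-376c against siRNA negative control and 0.59 between the controls. It gave 3 genes at 1.5-fold for Pre-miR-376c and 19 between the controls, and 6 at 2-fold for siGRB2 against its own control and 4 between the controls. Such a shift changes every single-gene difference of a comparison by the same amount. The single-gene values above therefore depend on this choice of scaling too. Quantile normalization gave a median of 0.20 between the controls, 2 genes at 1.5-fold for Pre-miR-376c, and at 2-fold 0 for Pre-miR-376c against siRNA negative control, 1 for siGRB2 against its own control and 1 between the controls, where the percentile over detected probes also gave 1. For siGRB2 against its own control, the brightest probe gave a median of -0.21, and subtracting the median of all genes, an alternative chosen after seeing the data, gave -0.22. The comparison of siGRB2 with Pre-miR negative control kept its median between 0.058 and 0.11 under all 11 alternatives run. The median of all genes ran from -0.0047, with the percentile over detected probes, to 0.091, with dim probes kept. With dim probes kept, the ER genes had 0.097, close to that of all genes. The cause of these changes was not tested.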
